A study of Mus musculus with 4 samples.

Results

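Of the 56748 gene IDs in the count tables, 10 belong to genes of the cell cycle and of chromosome structure and are described here: Melk, Smc2, Ccne2, Skp2, Ccnc, Cdc26, Orc3, Esco1, Nipbl and Casp8ap2. They were taken by symbol from each table and cover a mitotic kinase, a condensin subunit, 2 cyclins, 2 ubiquitin ligase subunits, an origin protein, 2 cohesin regulators and a histone mRNA factor. The RNA came from lymph nodes of 4 mice that all had EAE (experimental autoimmune encephalomyelitis), in which an immune attack on the brain and spinal cord is induced. Mice BrQ 1 and BrQ 3 received BrQ, which the study's title spells out as 2-bromo-1,4-naphthalenedione, a brominated naphthoquinone. Mice Vehicle 1 and Vehicle 3 were the controls, and no mouse without EAE was analysed here. The sources used here give no strain, age, dose, treatment time or way of inducing EAE. With 2 mice in a group, an SD rests on 2 values. A p-value sets the group difference against a spread estimated from these 4 mice only, with information shared over all features.

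A dividing cell licenses its replication origins in G1, copies its DNA in S phase while cohesin holds the sister chromatids together, and compacts the chromosomes with condensin before mitosis. Cyclins and their kinases set the order of these steps, and ubiquitin ligases of the SCF and APC/C families make the steps irreversible by marking regulators for destruction. In a lymph node these genes are known for the clonal expansion of activated B and T cells, although several of the 10 are also used by resting cells.

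Gene names were checked against reads before any value was used, because most names in these tables did not appear to sit on their own reads. Mki67, the usual proliferation marker, held 0 reads in all 4 libraries. In a panel of gene families used in most cell types, the 607 genes that lay outside the 4 chromosome segments listed below averaged 2.25 reads at the median, and 126 of them averaged 100 or more. Names and reads appeared to meet on chromosome 4 from 3549041 to 62503467, chromosome 6 from 3372257 to 31563981, chromosome 15 from 6522853 to 38692446 and chromosome 18 from 3266048 to 10818704 of GRCm38. All 10 genes lay inside these segments under each of 4 settings of the segment rule, which used no treatment label. The libraries held 6813832 to 7989226 reads in gene intervals, while 87.0% to 89.0% of all read rows named no gene. Mitochondrial reads took 12.1% and 15.8% of gene reads in BrQ and 20.6% and 30.3% in Vehicle.

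Levels are given as CPM, a gene's reads per 1000000 reads in gene intervals after TMM scaling between libraries. Of 28 marker genes of lymph node cell types, 7 lay inside the segments and 5 had enough reads to be tested. The B cell genes Pax5 and Cd72 summed to 2075 and 2126 CPM in BrQ and to 3254 and 3391 in Vehicle. The T cell genes Il7r and Sit1 summed to 598.6 and 683.4 CPM in BrQ and to 958.3 and 1024 in Vehicle. Both sums were lower in each BrQ library than in either Vehicle library. The 3 stromal genes Ccl19, Ccl21a and Col1a2 summed to 17.1 and 12.5 CPM in BrQ and to 18.6 and 25.5 in Vehicle. Most of each sum was Col1a2. Ccl19 went the other way, at 3.41 and 1.03 CPM in BrQ and 0.726 and 0 in Vehicle, with too few reads to be tested. Cd72, Il7r, Sit1 and Col1a2 passed the test as lower in BrQ (adjusted p = 0.000285, 0.00616, 0.00362 and 0.0352 with edgeR), and Pax5 did not pass (adjusted p = 0.155). With library size alone in place of TMM, Cd72 still passed, Il7r, Sit1 and Col1a2 stood at -0.23, -0.41 and -0.40 on the log2 scale without passing, and Pax5 turned to 0.15. Il7r also lost its call without BrQ 1 (adjusted p = 0.0818) and Sit1 without BrQ 3 (0.0582), both with edgeR. Col1a2 lost its call under 8 of 13 alternatives, among them leaving out Vehicle 3 (-0.52, adjusted p = 0.215), BrQ 1 (0.0837) or BrQ 3 (0.216), with edgeR. The chemokine Ccl21a held 0 reads in each library, where a count of 0 allows up to 3. Ccl21a and Ccl19 lie inside the chromosome 4 segment, but whether their names sit on their own reads was not shown. The part of these markers, and of the mitochondrial share, in the results on the 10 genes was not tested. In bulk tissue, fewer cells of a type and less RNA per cell cannot be told apart.

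Inside a segment a single name can still be off, and some genes near Nipbl and Cdc26 held few or no reads. Cdc26 lay 5 genes before the end of the chromosome 4 segment. Its direct neighbours carried reads, with 154.3 reads per kilobase of exon for Slc31a1 and 43.1 for Prpf4, a splicing protein. Toward the start of the chromosome, Fkbp15, Slc31a2 and Zfp37 held 0 reads in all 4 libraries, although Fkbp15 is a protein of most cells. Between Prpf4 and the segment's end, Rnf183, Wdr31, Bspry and Hdhd3 averaged 29.9, 45.1, 73.1 and 38.6 reads per kilobase. Just past the segment's end, Pole3, a subunit of a DNA polymerase, held 0 reads, and Alad, an enzyme of haem synthesis, held 1 read in 1 library. Nipbl averaged 13.0 reads per kilobase of exon. Beside it Cplane1 averaged 16.1, Nup155 22.7 and Wdr70 11.5 reads per kilobase, and Slc1a3 on its other side held 1 to 5 reads per library. Nup155 is a nuclear pore protein of most cells. In reads per library, the unit used below for other neighbours, Nup155 held 245 to 302 and Cplane1 200 to 241. Nadk2 beside Skp2 held 206 to 339 in that unit. In CPM per kilobase of exon, which is not the unit of the reads per kilobase above, 377 tested protein-coding genes inside the segments had a median of 19.6. Nipbl, at 1.75 CPM per kilobase, ranked 330 from the top, and no rank is given for its neighbours. The neighbours do not settle whether these names sit on their own reads. Nipbl and Cdc26 are therefore written below as intervals labelled with those names, and each count is also given without them.

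**Figure D1:**
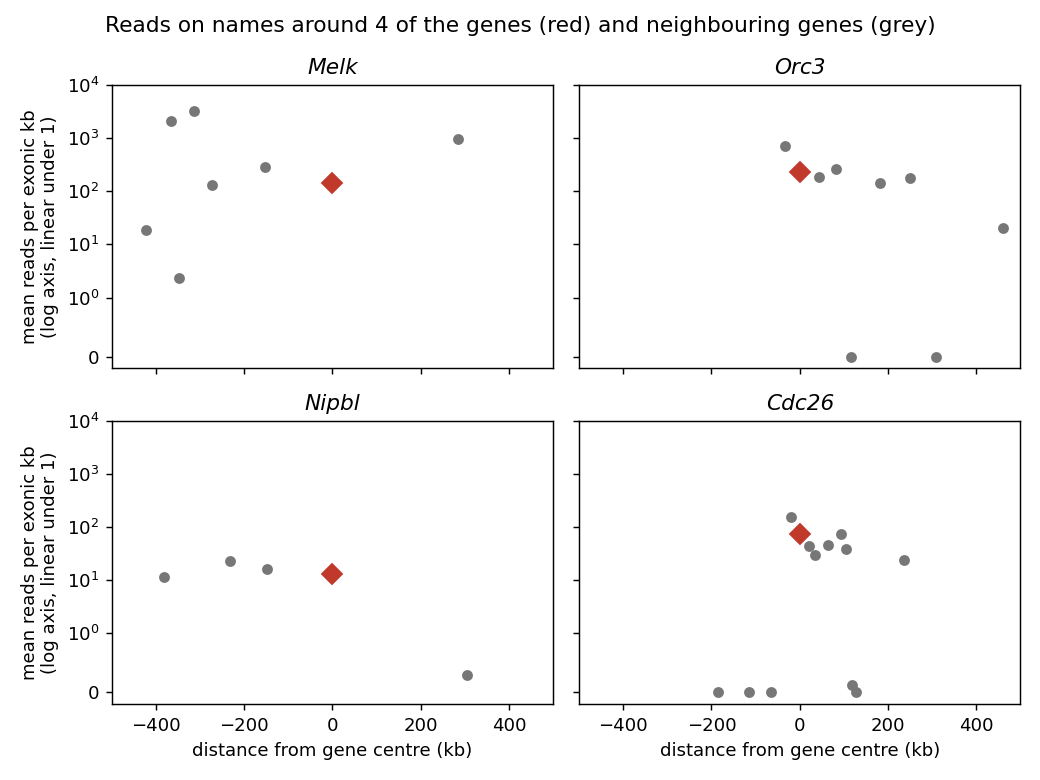
Mean reads per kilobase of exon over the 4 libraries (y axis) for protein-coding genes near 4 of the genes. The y axis is logarithmic above 1 and linear below, and the x axis is the distance from the gene's centre in kb. The red diamond is the named gene and grey points are its neighbours. Around Nipbl, at 13.0 reads per kilobase, no neighbour drawn is above 22.7, and around Cdc26 several neighbours lie at 0. Melk and Orc3 have neighbours above 100.

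For 7 of the other 8 genes the surroundings carried reads where widely used genes were present. The segments were drawn from these same counts, so neighbours inside a segment carry reads in part by construction. Snrpd1, beside Esco1, was itself a panel gene scored by the segment rule. These neighbours therefore describe the surroundings and are not a separate check of the names. Orc3 lay between Akirin2, with 1099 to 1277 reads per library, and Rars2, a mitochondrial tRNA synthetase, with 492 to 530. Melk had Pax5, with 8178 to 8522 reads, as its neighbour on one side. Ccne2 lay between Trp53inp1 and Ints8, and Casp8ap2 lay 3.85 kb before Mdn1, a ribosome assembly factor with 4289 to 4868 reads. Ccnc lay beside Tstd3, with 234 to 416 reads, and Prdm13, with 0. Esco1 lay between Greb1l, with 6 to 13 reads, and Snrpd1, a splicing protein with 1544 to 3144 reads, and 3 genes before the end of the chromosome 18 segment. Skp2 lay between Nadk2, with 206 to 339 reads, and Lmbrd2, with 320 to 653. Smc2 had no informative neighbour: Cylc2, a sperm protein, and Toporsl held 0 reads, and Cylc2 was 1209 kb away. The name of Smc2 was therefore not checked by its neighbours. None of the 10 shared exonic bases with another gene on its own strand. Ccne2 shared 17.4% of its exonic bases with Ints8 and Ccnc 5.40% of its own with Tstd3, each on the opposite strand. Where strand was not used, reads on those bases cannot be assigned to either gene. Ambiguous reads, 0.173% to 0.241% of all read rows, were counted for no gene. Whether reads on the shared bases were among them was not tested.

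Ranked by level per kilobase of exon over the 4 libraries, Esco1 stood highest at 37.5 CPM per kilobase, followed by Orc3 at 32.8, Smc2 at 28.6 and Melk at 19.0. Ccnc followed at 15.1, Ccne2 at 13.3, Casp8ap2 at 11.3, the interval labelled Cdc26 at 9.92, Skp2 at 6.29 and the interval labelled Nipbl at 1.75. The order was not the same in both groups. Smc2, at 36.1 and 32.5 CPM per kilobase in BrQ, was above Orc3, at 26.4 and 27.4, while in Vehicle Smc2, at 21.0 and 24.9, was below Orc3, at 32.0 and 45.5. In Vehicle 3 Orc3 was also above Esco1, at 45.5 against 35.8 CPM per kilobase. In the middle of the order Ccne2, at 9.78 to 17.9 CPM per kilobase, overlapped in range with both Ccnc, at 13.2 to 18.6, and Casp8ap2, at 10.4 to 13.1, while Ccnc was above Casp8ap2 in each of the 4 libraries. Every other pair of neighbours in the order also overlapped in range, except Skp2, at 5.41 to 8.15, and the interval labelled Nipbl, at 1.11 to 2.85.

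The 2 groups were compared to learn how these transcripts stand in treated against control nodes. Melk rose 1.53-fold and Smc2 1.49-fold in BrQ, and Orc3 was 1.44-fold lower. The intervals labelled Nipbl and Cdc26 also passed as higher, and Ccne2, Ccnc, Skp2, Esco1 and Casp8ap2 did not pass. That made 5 of 10 called, 4 higher and 1 lower, or 3 of 8 without the 2 doubtful intervals, 2 higher and 1 lower. The count over 8 was not planned and was added after values had been seen. Smc2, whose name was not checked by its neighbours, is 1 of the 2 higher among the 8. With edgeR the count of 5 came to 1 without BrQ 1, to 0 without BrQ 3, where 2 of the 10 had an unadjusted p under 0.05, and to 2 without Vehicle 3. Over all features tested, 45.7% were called, 23.6% higher and 22.2% lower; inside the segments the shares were 44.0%, 20.0% and 24.0%. The count of 5 among the 10 was near that background, so it is not a result about these genes as a group. Split by direction, 4 of 10 higher stood above the background and 1 of 10 lower below it, but without the 2 doubtful intervals 2 of 8 higher lay near it. The split moved with the scaling, leaned toward lower calls when Vehicle 1 was left out, and was not tested. Their median log2 fold change was 0.29, or 0.24 over the 8, beside 0.05 over all 10223 features and -0.14 over the 480 inside the segments. The 2 groups did not overlap in CPM for any of the 10 genes, and neither did they for 76.1% of all features or 75.4% inside the segments.

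**Figure D2:**
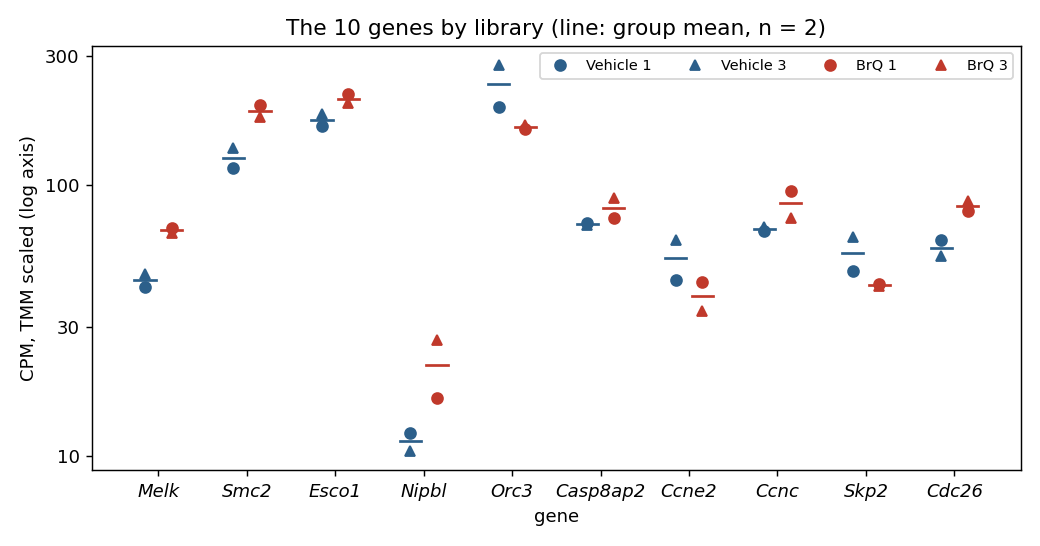
TMM-scaled CPM of each of the 10 genes (y axis, logarithmic) in each library. Red marks are BrQ and blue marks Vehicle, circles are replicate 1 and triangles replicate 3, and lines are the means of 2 mice. BrQ sits above Vehicle for 7 genes and below for Orc3, Ccne2 and Skp2, and the gaps are widest against the spread for Melk, Smc2 and Cdc26.

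Melk lies on chromosome 4 from 44300876 to 44364675, on the plus strand of GRCm38, the build of every position here. It encodes maternal embryonic leucine zipper kinase, which peaks in mitosis of dividing cells. It stood at 69.6 and 66.8 CPM in BrQ 1 and BrQ 3 and at 42.0 and 47.1 in Vehicle 1 and Vehicle 3. Both BrQ libraries were above both Vehicle libraries, and the gap between the groups was larger than the gap within either. BrQ averaged 68.2 ± 1.95 CPM and Vehicle 44.6 ± 3.62 (SD, n = 2), a 1.53-fold difference with a log2 fold change of 0.62 ± 0.17 (SE) and an adjusted p of 0.0151 by edgeR's quasi-likelihood test. The call was lost without BrQ 1 (adjusted p = 0.0849), BrQ 3 (0.0866) or Vehicle 1 (0.0553), all with edgeR.

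Smc2, on chromosome 4 from 52439243 to 52488260 (plus strand), encodes the core ATPase of both condensin complexes, the rings that compact chromosomes for mitosis. Its reads were 1564 and 1379 in BrQ and 793 and 890 in Vehicle. Scaled, these were 197.6 and 177.9 CPM in BrQ and 115.2 and 136.6 in Vehicle, and the groups did not overlap. The means of 187.7 ± 13.9 and 125.9 ± 15.1 CPM (SD, n = 2 each) differed 1.49-fold, a log2 fold change of 0.58 ± 0.15 (SE) with an adjusted p of 0.0128 in edgeR. The call was lost without BrQ 1 (adjusted p = 0.0926), BrQ 3 (0.0603) or Vehicle 1 (0.0580), and with no low count filter (0.0563), all with edgeR.

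Orc3, on chromosome 4 from 34570796 to 34614944 (minus strand), encodes a subunit of the origin recognition complex, which marks where DNA replication can start. It stood at 160.8 and 166.8 CPM in BrQ and at 194.8 and 277.1 in Vehicle. The BrQ libraries lay close together below both Vehicle libraries, and Vehicle 3 was far above Vehicle 1. The means were 163.8 ± 4.27 and 236.0 ± 58.2 CPM (SD, n = 2 each), a log2 fold change of -0.53 ± 0.18 (SE) and a 1.44-fold lower level in BrQ (adjusted p = 0.0343, edgeR). Without Vehicle 3 the value was -0.26 (adjusted p = 0.207, edgeR), less than the change with all 4 libraries, and the call was also lost without BrQ 1 (0.151) or BrQ 3 (0.154). With library size alone it was -0.14 (adjusted p = 0.553), scaled to every read row -0.31 (0.149) and with no low count filter -0.49 (0.177), all with edgeR.

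Melk, Smc2 and Orc3 are the 3 genes called among the 8 whose names were kept, in both directions, so their promoters are printed to show what stands upstream of each. Each is the stretch from 250 bases before to 50 bases after the start site, from RefSeq on GRCm38.p6, written 5′ to 3′ along the gene: Melk at chr4:44300667-44300966 on the plus strand, Smc2 at chr4:52438971-52439270 on the plus strand and Orc3 at chr4:34614893-34615192 on the minus strand. Capitals mark motif matches on either strand.
Melk: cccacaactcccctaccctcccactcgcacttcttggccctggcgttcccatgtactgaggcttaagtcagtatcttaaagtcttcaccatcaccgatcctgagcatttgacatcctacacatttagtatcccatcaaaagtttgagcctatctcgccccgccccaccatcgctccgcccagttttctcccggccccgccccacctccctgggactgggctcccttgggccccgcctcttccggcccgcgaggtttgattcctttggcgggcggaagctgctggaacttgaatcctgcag
Smc2: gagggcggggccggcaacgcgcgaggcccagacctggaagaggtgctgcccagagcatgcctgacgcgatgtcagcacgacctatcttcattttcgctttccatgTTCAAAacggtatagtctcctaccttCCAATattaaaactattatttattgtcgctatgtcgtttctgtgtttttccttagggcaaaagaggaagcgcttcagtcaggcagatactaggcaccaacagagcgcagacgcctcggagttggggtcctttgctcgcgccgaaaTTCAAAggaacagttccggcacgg
Orc3: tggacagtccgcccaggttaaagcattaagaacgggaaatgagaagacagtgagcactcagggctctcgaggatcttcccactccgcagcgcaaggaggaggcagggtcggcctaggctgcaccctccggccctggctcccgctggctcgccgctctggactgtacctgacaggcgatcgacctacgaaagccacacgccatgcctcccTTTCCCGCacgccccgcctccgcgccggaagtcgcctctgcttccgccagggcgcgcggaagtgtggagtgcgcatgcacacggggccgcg

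Searched on both strands, with no overlap between the matches found, were the cell cycle homology region (CHR) TTTGAA, the box CCAAT bound by NF-Y, and 4 words of the E2F site, TTTGGCGC, TTTCGCGC, TTTCCCGC and TTTGCCGC. The Smc2 window held the CHR word on the minus strand at 2 places, from -145 to -140 and from 26 to 31 relative to the start site, and CCAAT on the plus strand from -119 to -115. The Orc3 window held TTTCCCGC on the plus strand from -41 to -34, and the Melk window held none of these words. Other spellings of the E2F site were not searched, and the Melk window held such a spelling, TTTGGCGG. Its absence from the matches therefore does not show that Melk lacks an E2F site. Among 32851 promoter windows of this length, 17.9% held the CHR word, 37.4% held CCAAT and 2.27% held an E2F word. RefSeq windows were matched for 7 of the 10 genes. Casp8ap2, which was not called, also held an E2F word, TTTGGCGC, from -176 to -169. Skp2, not called either, held the CHR word at 2 places in 1 of its 2 windows. A match is a description of letters, and binding was not measured here.

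The ratio of reads of 2 genes in 1 library does not depend on how libraries are scaled. Smc2 held 1.23 and 1.07 reads for each read of Orc3 in BrQ, and 0.591 and 0.493 in Vehicle. Melk held 1.61 and 1.57 reads for each read of Skp2 in BrQ, and 0.870 and 0.734 in Vehicle. Esco1 to Orc3 stood at 1.35 and 1.20 in BrQ and at 0.849 and 0.658 in Vehicle. Ccnc to Ccne2 stood at 2.17 and 2.22 in BrQ and at 1.51 and 1.12 in Vehicle. In each of these 4 pairs both BrQ libraries were above both Vehicle libraries. The pairs were picked after the values were seen, so the ratios describe these libraries without a test, and they show unequal change and not which gene of a pair changed.

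The 2 cyclins did not pass in either direction. Ccne2, on chromosome 4 from 11191351 to 11204779 (plus strand), encodes cyclin E2, which activates CDK2 at the entry into S phase. It stood at 44.0 and 34.2 CPM in BrQ and at 44.7 and 62.6 in Vehicle, so BrQ 1 and Vehicle 1 differed by less than 1 CPM. The means were 39.1 ± 6.90 and 53.7 ± 12.6 CPM (SD, n = 2 each), a log2 fold change of -0.46 ± 0.22 (SE; adjusted p = 0.111, edgeR). Without Vehicle 1 it passed at -0.70 (adjusted p = 0.0268, edgeR), while without Vehicle 3 it stood at -0.21 (0.506) and without BrQ 3 at -0.28 (0.501). Ccnc, on chromosome 4 from 21727701 to 21759922 (plus strand), encodes cyclin C, which works with CDK8 or CDK19 in the kinase module of the Mediator complex. It stood at 95.2 and 75.9 CPM in BrQ and at 67.7 and 70.1 in Vehicle, and BrQ 1 was the highest library. Its log2 fold change was 0.31 ± 0.17 (SE; adjusted p = 0.159, edgeR), and library size alone put it past the threshold at 0.68 (adjusted p = 0.00800, edgeR). Ccnc also passed when scaled to every read row (0.52, adjusted p = 0.0312, edgeR) and in a fit of segment and mitochondrial features alone (0.45, 0.0286).

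Of the ubiquitin ligase subunits, Skp2 did not pass. The gene lies on chromosome 15 from 9111985 to 9155425 (minus strand). Skp2 is the F-box protein by which SCF recognises the inhibitor p27. It stood at 43.3 and 42.6 CPM in BrQ and at 48.2 and 64.1 in Vehicle. The BrQ libraries were nearly alike, and the spread lay between the Vehicle libraries. Its log2 fold change was -0.39 ± 0.19 (SE; adjusted p = 0.124, edgeR), and without Vehicle 1 it passed at -0.60 (adjusted p = 0.0294, edgeR). Without Vehicle 3 it stood at -0.18 (adjusted p = 0.501, edgeR). Cdc26, on chromosome 4 from 62383654 to 62408642 (minus strand), encodes a small subunit of APC/C, the ligase that drives exit from mitosis. The interval with its label held 80.2 and 87.2 CPM in BrQ and 62.5 and 54.9 in Vehicle. It passed as higher in BrQ, with a log2 fold change of 0.51 ± 0.16 (SE; adjusted p = 0.0288, edgeR), but whether these reads come from Cdc26 was not shown. That call was lost without BrQ 1 (adjusted p = 0.0801), BrQ 3 (0.185) or Vehicle 3 (0.112) and with no low count filter (0.0783) with edgeR, and with DESeq2 (0.0638).

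Among the cohesin regulators, Esco1 had the highest level per kilobase of the 10 genes in the mean over all 4 libraries, though not in the Vehicle mean, where Orc3 averaged 38.8 and Esco1 34.1 CPM per kilobase. It lies on chromosome 18 from 10566507 to 10610352 (minus strand). Esco1 is an acetyltransferase that stabilises cohesin on chromatin. It stood at 216.8 and 200.9 CPM in BrQ and at 165.5 and 182.5 in Vehicle. The gap between BrQ 3 and Vehicle 3 was about as large as the gap within each group. Its log2 fold change was 0.26 ± 0.14 (SE; adjusted p = 0.150, edgeR), and library size alone put it past the threshold at 0.64 (adjusted p = 0.00526, edgeR). Esco1 also passed when scaled to every read row (0.47, adjusted p = 0.0216, edgeR) and in a fit of segment and mitochondrial features alone (0.41, 0.0119). Nipbl, on chromosome 15 from 8290617 to 8444463 (minus strand), encodes the loader of cohesin onto DNA. The interval with its label had the fewest reads of the 10, 130 and 208 in the BrQ libraries against 84 and 68 in the Vehicle libraries. It passed at 0.93 ± 0.29 on the log2 scale (SE; adjusted p = 0.0273, edgeR), the largest change of the 10, and whether these reads come from Nipbl was not shown. Without BrQ 3 the value was 0.55 (adjusted p = 0.286, edgeR), and the call was also lost without Vehicle 1 (0.0506) or Vehicle 3 (0.119) and with no low count filter (0.118).

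Casp8ap2, also known as FLASH, lies on chromosome 4 from 32615451 to 32653265 (plus strand). Its protein is needed to process the 3′ ends of histone mRNAs, which are made in S phase. It stood at 75.9 and 89.4 CPM in BrQ and at 72.2 and 71.1 in Vehicle. The gap between BrQ 1 and Vehicle 1 was smaller than the gap between the BrQ libraries. Its log2 fold change was 0.21 ± 0.16 (SE), the smallest of the 10, and it did not pass (adjusted p = 0.319, edgeR). It passed as higher only with library size alone (0.58, adjusted p = 0.0217, edgeR) among the alternatives run.

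How many of the 10 stood higher depended on the scaling. With library size alone 7 were called higher and 0 lower, against 4 and 1 with TMM. Over all features the same choice moved the split from 2409 higher and 2267 lower to 3607 and 1072, and the median log2 fold change of all features from 0.05 to 0.42. Measured from that median, Melk stood at 0.56 with TMM and 0.57 with library size alone, Smc2 at 0.53 and 0.54, Orc3 at -0.58 and -0.56, and Skp2 at -0.44 and -0.42. A change of scaling moves all features by nearly the same amount, so these values stay alike by construction. Measured with TMM from the median inside the segments, Melk stood at 0.76, Smc2 at 0.72, Orc3 at -0.38 and Skp2 at -0.24. Scaled to every read row, 6 of the 10 were called higher and 0 lower, beside 3060 higher and 1587 lower over all features. When the fit held only segment and mitochondrial features, 6 of the 10 were called higher and 1 lower, beside 126 higher and 101 lower of the 504 features in that fit. No sign changed for any of the 10 under any of the 13 alternatives, but Skp2 came to -0.0033 with library size alone, too near 0 to give it a direction.

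**Figure D3:**
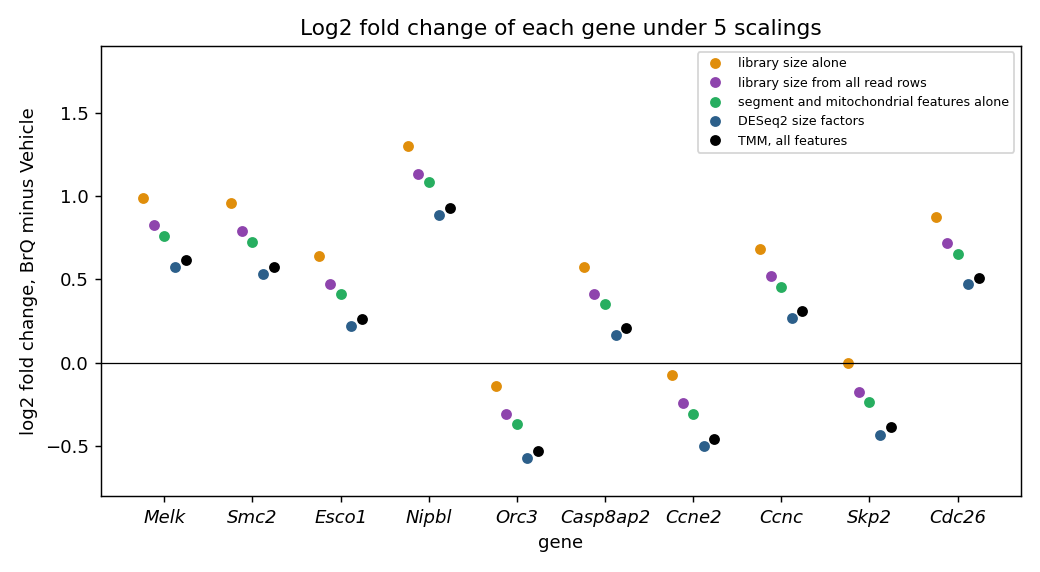
Log2 fold change of BrQ against Vehicle (y axis) for each of the 10 genes under 5 scalings, shown by colour. Library size alone lifts every gene by a like amount, so that Skp2 comes to about 0, while Melk, Smc2 and Orc3 keep their order.

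Lists of related genes were drawn up by function, and 24 of their 145 genes lay inside the segments, the 10 genes among them. Of the other 14, 13 had enough reads, 3 were called higher, 2 lower and 8 were not called, with a median log2 fold change of 0.14. The 5 called of these 13 are, too, near the background of 44.0% inside the segments. Library size alone put 6 of the 13 past the threshold as higher and 1 as lower. With that scaling, 163 of the 480 features inside the segments were called higher and 39 lower. All other list genes, the Mcm helicase genes and Mki67 among them, lay outside the segments, and their values were not used.

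In the list of cyclins and CDKs, Trp53inp1, a p53 target that slows the cell cycle, was the only other gene inside. Its reads numbered 4833 and 5505 in the BrQ libraries against 1925 and 2257 in the Vehicle libraries, with no overlap. It rose 2.11-fold, from 313.0 ± 47.1 to 660.4 ± 70.6 CPM (SD, n = 2 each; log2 fold change 1.08 ± 0.15 SE, adjusted p = 0.000592, edgeR). In the list of SCF and APC/C ligases, Ube2r2, a ubiquitin-conjugating enzyme that works with SCF, and the scaffold Cul2 did not pass (log2 fold changes 0.12 and 0.27). Both passed with library size alone, Ube2r2 at 0.48 (adjusted p = 0.0427, edgeR) and Cul2 at 0.64 (0.0134). Cul2 also passed when scaled to every read row (0.48, adjusted p = 0.0468, edgeR) and in the fit of segment and mitochondrial features (0.42, 0.0321).

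In the list of origin licensing and replication, 5 other genes lay inside and 1 passed. Nbn, a subunit of the MRN complex that senses DNA breaks, stood at 58.9 and 49.5 CPM in BrQ and 89.9 and 99.1 CPM in Vehicle. It was 1.74-fold lower in BrQ, at 54.2 ± 6.59 against 94.5 ± 6.50 CPM (SD, n = 2 each; log2 fold change -0.80, adjusted p = 0.00432, edgeR). The call was lost with library size alone (-0.43, adjusted p = 0.0823) and without BrQ 3 (-0.67, 0.0747). Rad1, of the 9-1-1 checkpoint clamp, stood at -0.32, Mms22l, which acts at stalled forks, at -0.27, Rad54b, of homologous recombination, at 0.15 and Rrm2b, a ribonucleotide reductase subunit, at 0.37 on the log2 scale, and none of these passed with all 4 libraries and TMM. Without Vehicle 1 Mms22l passed at -0.51 (adjusted p = 0.0404, edgeR). With library size alone Rrm2b passed (0.74, adjusted p = 0.00622, edgeR), and Rad1 and Mms22l turned to 0.06 and 0.11. Rrm2b also passed when scaled to every read row (0.58, adjusted p = 0.0223, edgeR) and in the fit of segment and mitochondrial features (0.51, 0.0279). Of the 6 genes in that list inside the segments, Orc3 and Nbn were called lower and 0 higher, beside 24.0% called lower inside the segments, so 2 of 6 is not a result about the list. Neither Orc3 nor Nbn was called with library size alone. The cohesin and condensin list had no gene inside other than Smc2, Nipbl and Esco1, and the histone mRNA list none other than Casp8ap2.

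In the list of mitosis and proliferation, 6 other genes lay inside. Rock1, a protein kinase that acts in cytokinesis and in the cell cortex, rose 1.73-fold, from 213.8 ± 15.1 to 369.1 ± 27.8 CPM (SD, n = 2 each; adjusted p = 0.00178, edgeR). Ywhaz, a 14-3-3 protein, rose 1.33-fold, from 1256 ± 2.73 to 1673 ± 75.0 CPM (adjusted p = 0.0195, edgeR), a call lost with any 1 of the 4 libraries left out (adjusted p from 0.0677 to 0.133). Arhgef39, a guanine nucleotide exchange factor, was 3.04-fold lower, at 35.0 ± 1.43 CPM against 106.4 ± 27.2 (adjusted p = 0.000358, edgeR). Anp32b, a histone chaperone, stood at -0.24 and the Hippo kinase gene Stk3 at 0.14 on the log2 scale, and neither passed; with library size alone Anp32b turned to 0.13. Mos, an oocyte kinase, held 0 reads in all 4 libraries. The genes that passed in this list are used outside mitosis as well, in cell shape and signalling.

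**Figure D4:**
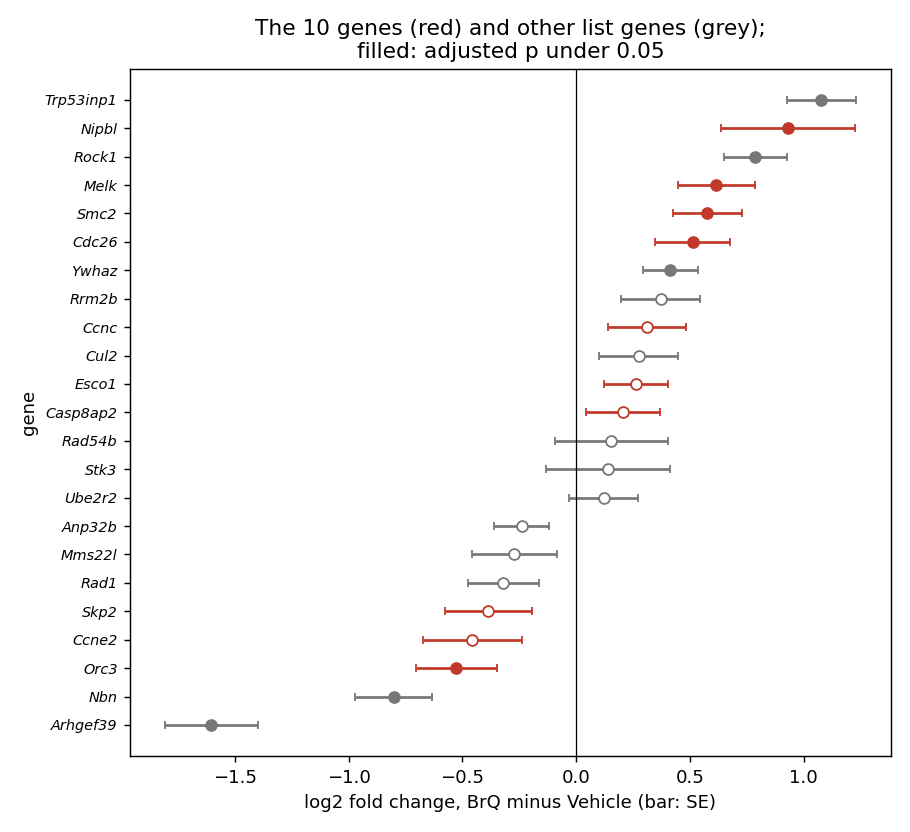
Log2 fold change of BrQ against Vehicle (x axis, bars are SE) for the 10 genes (red) and the 13 other list genes tested inside the segments (grey). Filled points have an adjusted p under 0.05, and the called genes lie on both sides of 0, from Arhgef39 at -1.60 to Trp53inp1 at 1.08.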

How the data were processed

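RNA from the lymph nodes of 4 mice was extracted with TRI Reagent and sequenced in paired ends, 1 library per mouse, from samples with an integrity number above 8, per the labels' protocols. The tools, per the submitters' processing notes, were HISAT2 2.1.0, HTSeq 0.11.2 and Trim Galore 0.6.2, with the genome build mm10. No source used here gives the annotation release or the strand setting. The authors deposited raw counts of reads for each gene ID. The 5 closing rows that name no gene, 87.0% to 89.0% of all read rows, were left out of library sizes and tests.

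Positions and exon lengths came from GENCODE M21 (GRCm38) for 52073 of 56748 IDs. Lengths are merged exons of all transcripts. Segments where names and reads appear to meet came from a chain with 2 states along each chromosome, scoring panel genes at 100 reads and other protein-coding genes at 50, with at least 2 Mb and 80% of panel genes past 100. The segment rule was set up with earlier results on these data known.

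All features were tested with edgeR 4.0.16 (quasi-likelihood without the legacy option, filterByExpr, TMM) in R 4.3.3, with Benjamini-Hochberg adjustment over all 10223 features and a threshold of 0.05. The SE is the log2 fold change divided by the root of the F statistic. CPM values are TMM scaled. DESeq2 1.42.0, other scalings, no low count filter, a block for the replicate number, leaving out each library in turn and 2 settings chosen after seeing the data were alternatives. The test was run on simulated data with a common dispersion for all features and few changed features, in random directions. In the real data 45.7% of features were called, so that simulation cannot check the choice of scaling. Libraries of a group differed by more than sampling noise, with a chi-square per degree of freedom of 12.4 in BrQ and 26.6 in Vehicle. The genes and lists were chosen with earlier results of these data known. Every one of the 10 genes, every list or marker gene inside the segments and the nearest neighbours of the 10 were named by rule. The value of 1 neighbour is not reported here. Mki67 and further neighbours of Nipbl and Cdc26 were chosen after their values were seen. A list entry written Tp53inp1 was read as the mouse symbol Trp53inp1. Figures were drawn with matplotlib 3.10.9.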

Additional observations from a re-analysis of the deposited data

Results flagged for a closer look

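The share of read rows in no gene interval lay outside the comparisons and was higher in both BrQ libraries than in both Vehicle libraries, at a mean of 88.7% in BrQ and 87.3% in Vehicle. Its part in the values of the 10 genes was not tested.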

How the results depend on the processing

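Over all features 4676 were called; leaving out 1 library gave 2031 to 4376, no low count filter 2481, and segment and mitochondrial features alone, which are fewer, 227. Inside the segments 211 were called, 79 to 206 with a library left out and 107 with no low count filter. Of the 10 genes 5 were called, 0 to 4 with a library left out and 1, Melk, with no low count filter. With no low count filter the adjusted p of Melk was 0.04995 (edgeR), just under the threshold. Of the 8 without Nipbl and Cdc26, 3 were called. That count was 0 to 3 with a library left out, 1 with no low count filter, 5 with library size alone and 5 with segment and mitochondrial features alone. Of the 13 other list genes 5 were called, 3 to 5 with a library left out, and 7 with library size alone, with every read row or with segment and mitochondrial features alone. Where a library is left out, its group is 1 mouse, assumed to vary like the other group.

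With the replicate block, 4190 of all features, 178 inside the segments and 4 of the 10 genes were called. Cdc26 was the gene that lost its call (adjusted p = 0.0665, edgeR), and among the markers Col1a2 did (0.0555). The labels do not say that a number pairs mice, and the deviations of replicate 1 correlated at -0.14 between the groups. With the numbers crossed, chosen after seeing the data, 5284 of all features and 6 of the 10 genes were called. None of the 10 log2 fold changes turned sign under any of the 13 alternatives. Some list genes that did not pass turned sign. With library size alone Mms22l came to 0.11, Rad1 to 0.055, Anp32b to 0.13 and Pax5 to 0.15. With a library left out, Ube2r2 ran from -0.049 to 0.27, Rad54b from -0.18 to 0.54 and Stk3 from -0.18 to 0.42. The cause of the other changes was not tested. At 68 to 208 reads per library, the interval labelled Nipbl is the least precise of the 10.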
